A study of Mus musculus with 2 samples.

Results

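The genes of Polycomb repressive complex 2 (PRC2) were examined in mouse embryonic stem cells (mESCs) of the line iXist-ChrX-Dom without induction. The members were taken by gene name, as the core and accessory subunits Ezh1, Ezh2, Eed, Suz12, Rbbp4, Rbbp7, Jarid2, Aebp2, Mtf2 and Phf19, and all 10 were found among the 22556 genes of the count table. The line is a clone of female XX cells from domesticus (129S) and castaneus (Cast) parents with a recombination event on the X, so not all of that chromosome can be read by allele, and in it the Xist promoter of the Dom/129S allele was replaced by a TetOn promoter that responds to doxycycline. They were untreated and taken at 0 h, after the fibroblast feeders had been removed by pre-plating, and the series holds 1 group of 2 replicates. Both libraries come from this engineered line, so there is no unmodified line and no treated sample to compare with, and nothing states whether the replicates were separate cultures, so their spread may be technical. Poly(A) RNA was counted by gene, with 23716499 fragments in replicate 1 and 20275749 in replicate 2. The libraries stood apart from each other: 9 of 10 ES cell markers were called lower in replicate 2, where 44.9% of all genes tested were (with TMM scaling factors 7 were lower and 3 higher, beside 30.5% and 26.7% of all genes). Among them Pou5f1 (Oct4) stood at 110 TPM in replicate 1 and 17.2 in replicate 2, and Dppa5a at 626 and 79.6 TPM (TPM is explained with the levels), so member values are given for each library.

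PRC2 is the enzyme complex that methylates lysine 27 of histone H3 and so marks repressed developmental genes, and on the inactive X chromosome it acts together with the ubiquitin ligase complex PRC1. EZH2 or its paralog EZH1 holds the catalytic SET domain, but needs EED, which reads the methyl mark and stimulates the enzyme, and SUZ12, the scaffold, to be active. RBBP4 and RBBP7 are WD40 proteins that bind histones. Accessory subunits divide the complex into PRC2.1, with a Polycomb-like protein (MTF2, PHF19 or PHF1), and PRC2.2, with JARID2 and AEBP2. Embryonic stem cells that lack PRC2 keep dividing but fail to differentiate properly.

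The members include 3 paralogous pairs, and their sequences are shown first because the counts can separate paralogs only where the transcripts differ. The coding sequences of Ezh2 (2238 bases) and Ezh1 (2241 bases) matched at 70.7% of 2137 aligned positions, and their longest identical run was 17 bases. For Rbbp4 and Rbbp7, each with 1275 coding bases, identity was 78.4% and the longest run 20 bases. Mtf2 and Phf19 were the most distant, with 63.9% identity and a longest run of 12 bases. No 50-base word was shared within any of the 3 pairs. The most alike stretches of read length (81 bases) are given below from GENCODE M21 transcripts on mm10, with the bases that differ within a pair in capitals. The Ezh stretch lies in the part that encodes the SET domain.
Ezh2, chr6:47532028-47532944, minus strand, exons 17 and 18 of 20: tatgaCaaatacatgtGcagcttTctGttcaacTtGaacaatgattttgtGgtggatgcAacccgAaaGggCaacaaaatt
Ezh1, chr11:101193769-101194510, minus strand, exons 18 and 19 of 21: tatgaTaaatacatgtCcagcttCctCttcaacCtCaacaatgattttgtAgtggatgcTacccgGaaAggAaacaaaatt
Rbbp4, chr4:129317680-129317863, minus strand, exons 10 and 11 of 12: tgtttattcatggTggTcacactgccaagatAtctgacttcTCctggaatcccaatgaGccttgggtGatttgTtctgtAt
Rbbp7, chrX:162775792-162777850, plus strand, exons 10 and 11 of 12: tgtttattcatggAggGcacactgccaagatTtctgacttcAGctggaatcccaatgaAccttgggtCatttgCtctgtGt
Mtf2, chr5:108088054-108092105, plus strand, exons 6 and 7 of 15: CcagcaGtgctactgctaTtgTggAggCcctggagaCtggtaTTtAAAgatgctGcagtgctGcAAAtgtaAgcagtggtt
Phf19, chr2:34904106-34905485, minus strand, exons 6 and 7 of 15: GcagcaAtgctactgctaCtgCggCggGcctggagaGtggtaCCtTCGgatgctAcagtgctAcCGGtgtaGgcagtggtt
Even here the pairs differ at 11, 9 and 18 of 81 bases. No member shared a 50-base word with another coding gene, but some did with pseudogenes. Of the 50-base words of the Rbbp7 transcript, 9.38% also occur in the pseudogene Gm6382, so the Rbbp7 count carries that uncertainty. For the other 9 members the share was at most 0.872%, in Rbbp4. None of the members overlaps another gene of the table on its own strand.

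Levels are given as TPM (transcripts per 1000000), computed from the deposited counts with the union of annotated exons as length, and averaged over the replicates. The counts were taken over whole transcript spans, so they can include intronic fragments that this length leaves out. Levels of genes with long introns may therefore be too high, and the intronic share was not tested. All 10 members reached 1 TPM. Their median was 246 TPM, and 9 of the 10 stood above 11.5 TPM, the median of the 14536 genes with at least 10 counts over both libraries. Levels ran from 1378 TPM for Mtf2 to 5.12 TPM for Phf19, a 269-fold range of the means that was 202-fold in replicate 1 and 486-fold in replicate 2.

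**Figure D1:**
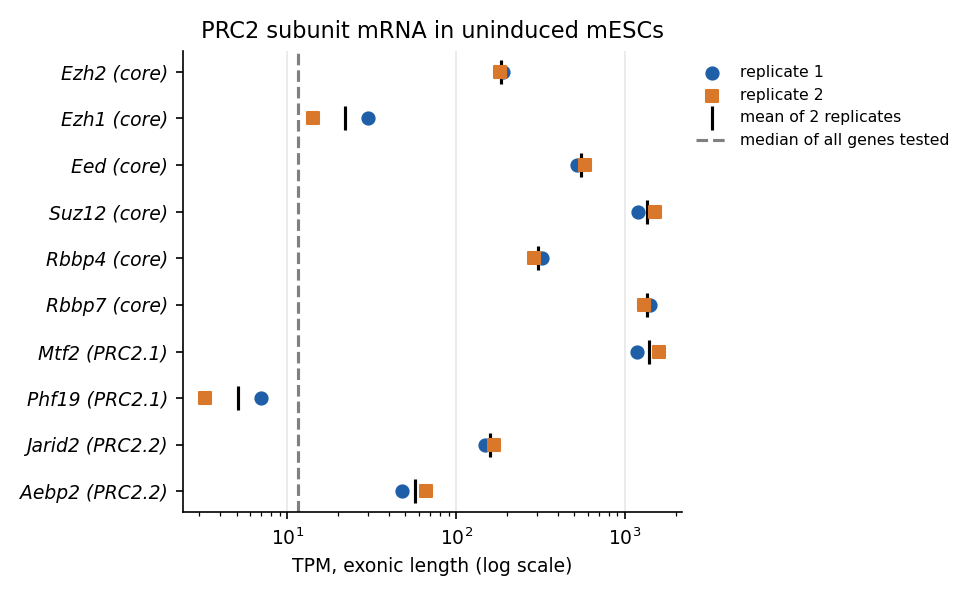
Level of each PRC2 member in TPM with exonic length, on a log axis. Circles are replicate 1, squares replicate 2, vertical ticks the mean of 2 replicates, and the dashed line the median of all genes tested (11.5 TPM). Phf19 is the only member left of that line, and Mtf2, Rbbp7 and Suz12 share the top near 1350 TPM.

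Among the enzymes, Ezh2 far exceeded Ezh1. Ezh2 (chr6:47530274-47595030) had 3962 counts in replicate 1 and 3078 in replicate 2, or 188 and 182 TPM, a mean of 185 ± 4.52 TPM (SD, n = 2). On this scale its replicates were the closest of any member, with an SD of 2.44% of the mean, whereas by CPM Eed had the smallest log2 ratio between replicates, 0.065. Ezh1 (chr11:101191115-101226450), which is the form known to persist in resting and differentiated cells, had 1372 and 519 counts. It stood at 30.0 and 14.1 TPM, a mean of 22.1 ± 11.2 TPM. Replicate 2 held less than replicate 1, and the 2 Ezh1 values lie far below both Ezh2 values.

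The Ezh2 to Ezh1 ratio of TPM was 6.27 in replicate 1 (95% exact binomial interval 5.89 to 6.67) and 12.9 in replicate 2 (11.7 to 14.2). Ezh1 thus made up 13.8% and 7.21% of the summed Ezh level. The intervals do not overlap, so the size of the ratio is known to no better than this difference between libraries. Such intervals cover counting error only. The ratio also depends on the length used, and with the deposited length, which includes introns, it was 1.58 and 3.24, while Ezh2 remained the higher in each library.

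The scaffold and the reader of the mark were more abundant than the enzymes. Suz12 (chr11:79993106-80034123) had 39347 and 39751 counts, the most of any member, or 1197 and 1504 TPM with a mean of 1350 ± 217 TPM. Eed (chr7:89954654-89980976) had 8103 and 7249 counts, or 521 and 580 TPM with a mean of 551 ± 41.5 TPM. Both were higher in replicate 2, and the ranges of the 2 genes do not overlap. Although EED and SUZ12 are found in the core complex in equal amounts, the Suz12 to Eed ratio of mRNA was 2.295 in replicate 1 (95% exact binomial interval 2.24 to 2.35) and 2.59 in replicate 2 (2.53 to 2.66). It averaged 3.32 with the deposited length and 5.17 by CPM. Against the summed level of Ezh1 and Ezh2, Eed stood at a ratio of 2.68 ± 0.404 (SD, n = 2) and Suz12 at 6.58 ± 1.55. Both depend on length, as the Suz12 ratio was 12.6 with the deposited length and the Eed ratio 3.75 with it and 1.77 by CPM. These are levels of mRNA, and protein was not measured.

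Of the histone-binding subunits, the X-linked Rbbp7 exceeded the autosomal Rbbp4. Rbbp7 (chrX:162760372-162779090) had 24799 and 18417 counts, or 1406 and 1299 TPM with a mean of 1352 ± 76.1 TPM. Rbbp4 (chr4:129307100-129335370) had 10690 and 7725 counts, or 323 and 290 TPM with a mean of 306 ± 23.1 TPM. The Rbbp4 to Rbbp7 ratio was 0.229 in replicate 1 (95% exact binomial interval 0.224 to 0.235) and 0.223 in replicate 2 (0.217 to 0.229). Rbbp4 therefore made up 18.5% ± 0.291 (SD, n = 2) of the pair, the most repeatable of the 3 paralog ratios between libraries. The size of the ratio rests on length, at 0.282 with the deposited length and 0.425 by CPM. RBBP4 and RBBP7 also belong to other complexes, such as NuRD and the SIN3 corepressor, so their level is not a measure of PRC2 alone.

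Rbbp7 is the only member on the X chromosome and so lies on the chromosome that Xist RNA silences, and its alleles were not separated here. Its transcription start lies 59.3 Mb from that of Xist. Among 530 X-linked genes with a mean of at least 1 TPM, whose median was 37.4 TPM, it ranked 15. When these genes were divided by level into 3 groups of equal size, Rbbp7 fell in the highest. It ranked 14 in each replicate alone and 21 with the deposited length.

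Between the Polycomb-like subunits the difference was extreme. Mtf2 (chr5:108065674-108109219), which binds unmethylated CpG-rich DNA and brings PRC2 to CpG islands, had 35635 and 39011 counts. That is 1168 and 1589 TPM, a mean of 1378 ± 298 TPM. Phf19 (chr2:34893755-34913976), whose protein also binds methylated lysine 36 of histone H3, had only 196 and 74 counts. Its level was 6.97 and 3.27 TPM, a mean of 5.12 ± 2.61 TPM. The depth sets wide limits for Phf19, at 7.15 to 9.51 counts per 1000000 (CPM) in replicate 1 and 2.87 to 4.58 CPM in replicate 2 (95% exact binomial intervals), and these do not overlap. The Mtf2 to Phf19 ratio was 168 in replicate 1 (146 to 194) and 486 in replicate 2 (387 to 619), and Phf19 made up 0.593% and 0.205% of the pair. With the deposited length the ratio was 84.4 and 245. The third paralog, Phf1, had 6 and 3 counts, or 0.302 and 0.188 TPM, and was too low to be tested between replicates.

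The PRC2.2 subunits were lower than Mtf2. Jarid2 (chr13:44730774-44921643), a DNA-binding relative of histone demethylases without their activity, had 6890 and 6238 counts, or 149 and 168 TPM with a mean of 158 ± 13.2 TPM. Aebp2 (chr6:140622663-140677418), a zinc finger protein, had 2922 and 3258 counts, or 47.6 and 66.0 TPM with a mean of 56.8 ± 13.0 TPM. Jarid2 was the higher in both libraries, but by a factor that rests on length, since with the deposited length Aebp2 was the higher, at 44.3 against 26.6 TPM. Summed, Mtf2 and Phf19 exceeded Jarid2 and Aebp2 by a ratio of 5.98 in replicate 1 and 6.82 in replicate 2 (6.40 ± 0.594, SD, n = 2). Nearly all of the first sum, which leaves out other PRC2.1 partners, was Mtf2. The ratio of the sums too rests on length, at 9.51 with the deposited length and 3.88 by CPM.

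In order of mean level the members were Mtf2, Rbbp7, Suz12, Eed, Rbbp4, Ezh2, Jarid2, Aebp2, Ezh1 and Phf19. Of the 9 neighbouring pairs in this order, 7 had replicate ranges that do not overlap. The exceptions were Mtf2 with Rbbp7 and Rbbp7 with Suz12, and these 3 genes swap places between the libraries and do not differ beyond their spread. Ezh2 and Jarid2 were close, with Ezh2 above by a ratio of 1.26 in replicate 1 and 1.08 in replicate 2. With 2 values a gene, an exact permutation test of 2 against 2 values cannot give a two-sided p below 0.333, so the order is given as a description. In rank among the 22128 genes with an exonic length, Mtf2 was 63, Rbbp7 67 and Suz12 68, while Eed was 269 and Rbbp4 646. Ezh2 was at 1224, Jarid2 at 1454, Aebp2 at 3458, Ezh1 at 5670 and Phf19 at 8932.

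Because the counting took in whole transcript spans, the deposited length includes introns, and exons are 3.23% of that span in Jarid2 and 18.5% in Phf19. Jarid2, with a span of 190871 bp against 6158 bp of exons, fell from 158 to 26.6 TPM with the deposited length, and Ezh2 (64758 against 2802 bp) fell from 185 to 41.7 TPM. Jarid2 dropped below Aebp2 on that scale in both libraries, and Ezh2 in the mean and in replicate 2 (42.1 against 52.7 TPM) but not in replicate 1 (41.2 against 36.0 TPM). The top 3 genes and the bottom pair, Ezh1 and Phf19, were the same genes with each length and with none.

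**Figure D2:**
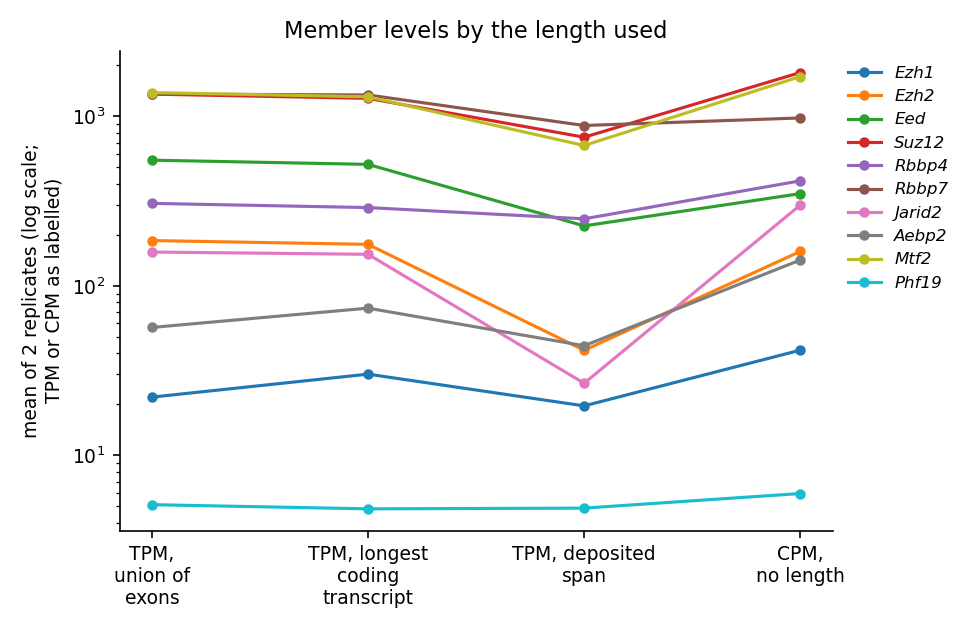
Mean level of each member over 2 replicates under 4 choices of length, on a log axis: TPM with the union of exons, with the longest coding transcript, with the deposited transcript span, and CPM without length. Jarid2 and Ezh2 drop most with the span, where Jarid2 is at 26.6 TPM, and Phf19 is lowest throughout.

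The replicates were compared member by member to see whether their counts differed beyond counting error. An exact binomial test, two-sided, set both counts against the library totals. It compares these 2 libraries, not conditions. After Benjamini-Hochberg adjustment over all genes tested, the 2 libraries differed for all 10 members at 0.05, and for 59.9% of the 14536 genes tested. That share was 77.2% (33.5% higher and 43.7% lower in replicate 2) among the 5727 genes with at least 1000 counts over both libraries, and 9 of the 10 members are in that class. At such depth small differences pass the test, and the count of members is read against that share. The median absolute log2 ratio of CPM was 0.24 for the members, against 0.42 for all genes tested and 0.31 for the 9736 genes that had 50 counts or more in both. With TMM factors the order turned, at 0.39 for the members and 0.34 for those 9736 genes.

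Of the members, 5 were higher in replicate 2 and 5 lower, where 15% of all genes tested were called higher and 44.9% lower. Mtf2, Suz12, Aebp2, Jarid2 and Eed were called higher in replicate 2 under all 6 settings tried, and Ezh1 and Phf19 were called lower under all 6. Some of these settings change only the count filter, which leaves each member's log2 ratio as with the library totals, so they are no separate check. The direction of Ezh2, Rbbp4 and Rbbp7 flipped with the scaling. TMM factors of edgeR raise each log2 ratio by 0.22 and DESeq2 size factors by 0.31, and the median of the genes tested was −0.31 without them. With TMM, 6 members were higher and 2 lower, while Rbbp4 (adjusted p = 0.479, exact binomial test) and Rbbp7 (adjusted p = 0.212, exact binomial test) were not past the threshold. The corresponding shares of all genes were 26.7% and 30.5%, or 57.2% in all. With DESeq2 size factors 8 members were higher and 2 lower, beside 31.4% and 25.8% of all genes (57.2% in all). Against the ratio that goes with GC content, 5 were higher and 5 lower, beside 22.8% and 21.3% (44.1% in all). Where only the count filter was changed, the unchanged ratios gave 5 and 5 once more. The shares of all genes were 17.3% and 47.4% (64.7% in all) with at least 10 counts required in each library. With no filter they were 12% and 36% (48% in all).

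The largest member differences were in the genes with the most GC. Ezh1 had a log2 ratio of CPM of −1.18 (adjusted p = 1.42e-60, exact binomial test) with a transcript GC content of 51.2%. Phf19 had −1.17 (adjusted p = 1.89e-09, same exact test) with 53.9%. At the other end, Mtf2 had 0.36 with 38.2% GC and Aebp2 0.38 with 40.9%. Across the 10 members the log2 ratio had a Spearman's rho of −0.75 and a Pearson's r of −0.82 with GC content, beside a rho of −0.66 over the 9243 autosomal genes that had 50 counts or more in both libraries. Genes of the same 2 libraries are not independent, so this is a description.

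A curve through the autosomal genes gave the ratio that goes with each GC content. Ezh1 remained 0.68 below that curve and Phf19 0.53 below it on the log2 scale, while Jarid2 was 0.44 and Eed 0.33 above it. Mtf2, at 0.028, and Suz12, at 0.082, lay close to it. The median absolute distance from the curve was 0.22 for the members and 0.22 for the 9736 genes of that depth. What part GC content has in the replicate difference was not tested.

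**Figure D3:**
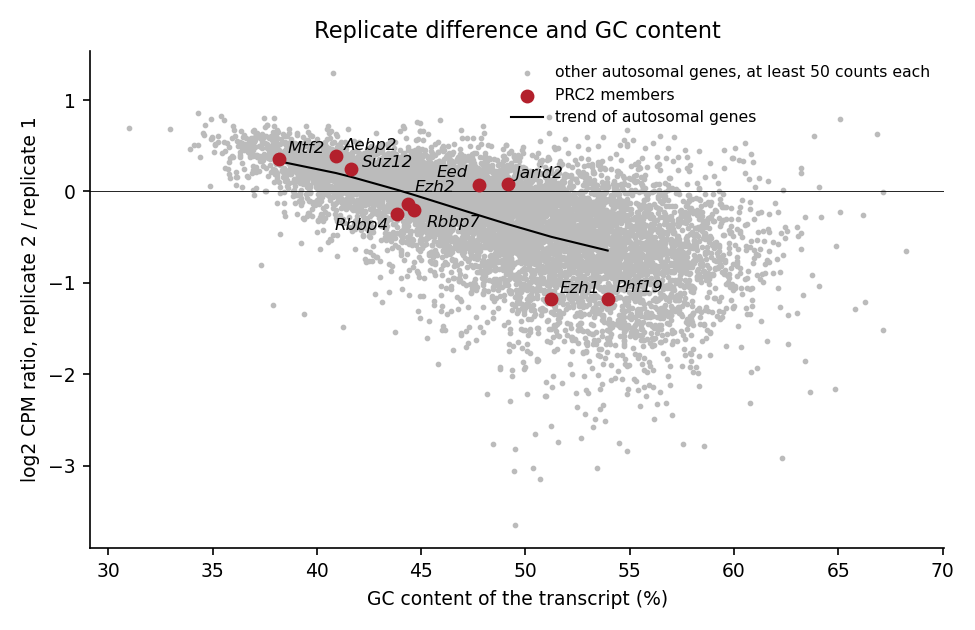
The log2 ratio of CPM between replicate 2 and replicate 1 against transcript GC content in percent. Grey points are other autosomal genes that had 50 counts or more in both libraries, the line is their trend over the GC range of the members, and the red points are the 10 members. Ezh1 and Phf19 lie lowest, at −1.18 and −1.17, and Mtf2, Suz12 and Aebp2 lie above 0 at the AT-rich end.

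Further genes of PRC2 and of lysine 27 of histone H3 were taken from a list of 15, of which 13 reached 1 TPM with a list median of 36.2 TPM. Between replicates, 3 were called higher in replicate 2 and 7 lower among the 14 that could be tested, beside 15% and 44.9% of all genes. With TMM factors 7 were higher and 4 lower, beside 26.7% and 30.5%. Of the remaining PRC2.1 partners, Epop (listed as E130012A19Rik) had 93 and 15 counts, or 5.35 and 1.07 TPM. Its partners Elob and Eloc, which have many other roles as Elongin subunits, stood at 199 ± 82.8 and 317 ± 10.8 TPM. Lcorl, whose locus encodes another PRC2.1 partner, was at 95.2 ± 26.2 TPM. Ezhip (listed as AU022751), an inhibitor of the enzyme encoded on the X chromosome, had 70 and 33 counts, or 4.23 and 2.48 TPM.

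Kdm6a and Kdm6b encode the demethylases that remove the mark. Kdm6a, on the X chromosome, had 9194 and 9747 counts, or 206 and 272 TPM with a mean of 239 ± 46.4 TPM. Its mean was above that of Ezh2, and its lowest value was above the highest of Ezh2. Kdm6b had 30 and 26 counts, or 0.600 and 0.646 TPM, below 1 TPM in both libraries. Setd2 (125 ± 1.26 TPM) and Nsd1 (90.3 ± 9.64 TPM), which methylate lysine 36 of the same histone and so limit PRC2, were the other genes among the 6 highest of the list.

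**Figure D4:**
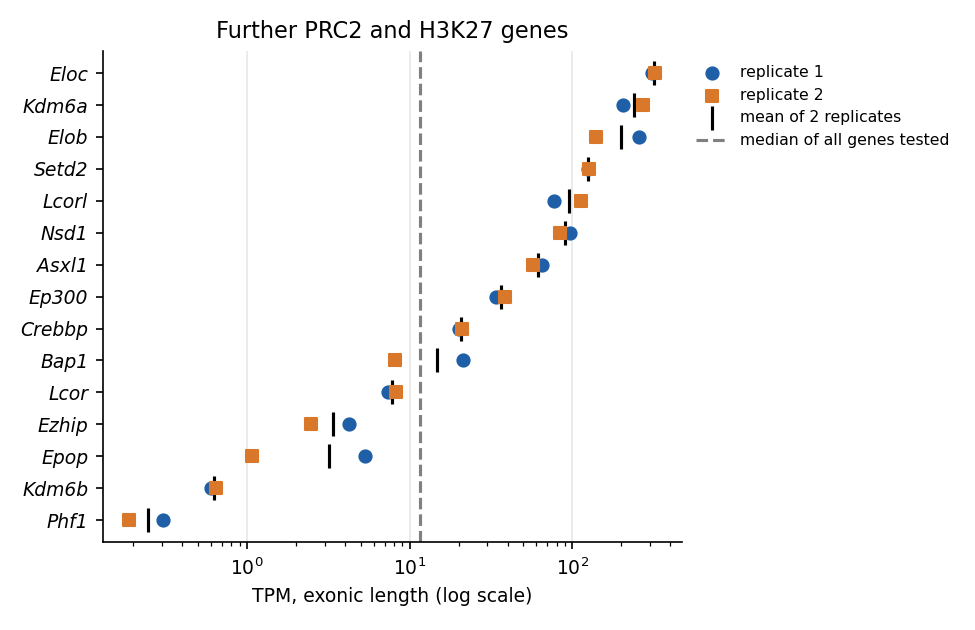
Levels of the 15 further genes in TPM with exonic length, on a log axis, with circles for replicate 1, squares for replicate 2, ticks for the mean, and the dashed line at the median of all genes tested. Eloc and Kdm6a lead the list, and Phf1 and Kdm6b lie below 1 TPM.

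A list of 12 developmental regulators that are classical PRC2 targets in mESCs had a median of 0.214 TPM. Of these, 3 reached 1 TPM, as did 12250 of the 22128 genes with an exonic length. Olig2 and Cdx2 were at 0 in each library, and the floor of 3 counts used for a count of 0 corresponds to 0.126 CPM in replicate 1 and to 0.148 CPM in replicate 2. The highest were Eomes, with 396 and 243 counts or 14.3 and 10.9 TPM, and Gata4, with 37 and 35 counts or 1.35 and 1.59 TPM. No sample without PRC2 was analysed here, so these levels cannot be tied to the complex.

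The labels give the cell type as mESC to NPC (neural precursor cells), and the titles as ES cells at 0 h. All 10 ES cell markers examined exceeded 10 TPM, with a summed level of 5596 TPM in replicate 1 and 4477 TPM in replicate 2. Of 8 neural precursor markers only Nes reached 1 TPM, at 3.93 and 3.67 TPM of sums of 5.12 and 4.31 TPM, while Sox1 and Olig2 had 0 counts. Of 10 fibroblast markers 3 reached 1 TPM, with sums of 189 and 157 TPM. Nearly all of this was Fn1 (117 and 119 TPM) and Sparc (69.0 and 37.2 TPM), and the third was Thy1 (2.27 and 0.176 TPM). Lum was at 0, the other 6 were at 0.291 TPM or less in each library, and 3 of the 5 that could be tested were called lower in replicate 2, beside 44.9% of all genes. With TMM factors 2 were lower and 1 higher, beside 30.5% and 26.7%. Of 8 primitive endoderm markers 4 reached 1 TPM, with sums of 21.2 and 19.5 TPM. The part of other cells in the member levels was not tested. In such bulk samples, fewer cells of a type and less RNA per cell cannot be told apart.

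As to the genes with the most similar levels, taken as the nearest in log2(TPM + 1) over the 2 libraries, those of Ezh2 were Lrpprc (188 and 180 TPM) and Dis3 (190 and 185 TPM). Eed was nearest to Mrpl18 (518 and 573 TPM) and Ybx3 (527 and 572 TPM). Suz12 was nearest to Cks2 (1139 and 1516 TPM) and Eif5 (1240 and 1435 TPM). The distances ran from 0.017 to 0.084 log2 units, and with 2 libraries of 1 group they express a like level, not a shared pattern.

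Most members also had CpG-rich promoters, a feature that their choice did not use. In the RefSeq windows from 250 bases before to 50 bases after the start nearest to the deposited one (GRCm38.p6, the build of mm10), 9 of 10 members held at least 15 CpG dinucleotides, against 48.5% of 16604 genes of the count table matched by symbol and taken at their first listed start. The median was 30.5 CpG for the members and 14 for those genes. Those genes were not chosen by level, whereas all 10 members reached 1 TPM, so the sets are not matched. The highest count was 41, in Suz12. The exception was Aebp2, with 4 CpG at that start, with 21 at a second RefSeq start (chr6:140624659-140624958) and 4 at another. A second Mtf2 start, not the one nearest to the deposited start, held 2. Phf19, the lowest member, held 38 CpG, and Mtf2, the highest by mean TPM with exonic length, 30.

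EZH2 and EED are known targets of E2F transcription factors, and so the E2F motif was sought as TTTGGCGC, TTTCCCGC, TTTGCCGC or TTTCGCGC on either strand. It was not found in the window of Eed or of 6 other members, and was found in those of Ezh2, Suz12 and Phf19, and in 2.85% of the windows of the 16604 genes (2.26% of all 32851 RefSeq windows of this length). These 3 are shown from 250 bases before the start to 20 bases from it on, with the motif in capitals, because they span the levels from the top 3 to the lowest member.
Ezh2, chr6:47595011-47595280, minus strand: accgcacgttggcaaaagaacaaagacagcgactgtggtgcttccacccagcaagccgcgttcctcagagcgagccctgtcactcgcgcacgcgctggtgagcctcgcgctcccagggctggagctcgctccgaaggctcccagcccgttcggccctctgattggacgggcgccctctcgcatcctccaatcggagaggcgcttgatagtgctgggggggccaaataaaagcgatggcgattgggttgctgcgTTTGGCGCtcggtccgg
Suz12, chr11:79992856-79993125, plus strand: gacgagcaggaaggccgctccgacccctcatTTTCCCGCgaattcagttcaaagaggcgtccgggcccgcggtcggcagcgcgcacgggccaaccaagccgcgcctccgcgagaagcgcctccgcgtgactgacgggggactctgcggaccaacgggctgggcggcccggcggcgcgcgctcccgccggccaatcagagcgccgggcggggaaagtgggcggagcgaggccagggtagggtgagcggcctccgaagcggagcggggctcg
Phf19, chr2:34913957-34914226, minus strand: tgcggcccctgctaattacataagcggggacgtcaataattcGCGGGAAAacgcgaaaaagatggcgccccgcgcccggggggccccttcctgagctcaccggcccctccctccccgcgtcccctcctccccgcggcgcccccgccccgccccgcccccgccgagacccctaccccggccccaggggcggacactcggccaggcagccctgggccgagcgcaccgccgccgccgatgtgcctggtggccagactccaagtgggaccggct
In Ezh2 it begins 3 bases after the annotated start, and in Suz12 and Phf19 it begins at −219 and −208 relative to the start. In Phf19 it reads on the opposite strand. A match is a description of the letters and not a bound site, and the motif stood in promoters of members whose levels were 1350, 185 and 5.12 TPM. Each motif sought holds a CpG, in which the member windows are richer than those of the other genes. No share matched for CpG was computed, so the members cannot be called enriched.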

How the data were processed

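Poly(A) RNA of 2 replicates of 1 group was analysed. The deposited values are raw fragment counts, which the authors obtained from featureCounts 1.5.2 in reverse-stranded mode over whole transcripts of a non-redundant long RNA annotation on mm10. The submitters' processing notes name STAR 2.4.2a and Bowtie2 2.3.2 without their role. Column names lack a letter b that the descriptions hold and were matched by the rest. Deposited starts were counted from 0 (10691 genes matched a GENCODE start after adding 1, 947 without), so 1 was added.

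TPM used the union of exons of GENCODE M21 (basic set), matched for 98.1% of genes by symbol, chromosome and position, because the deposited length includes introns. The study averages TPM over the 2 replicates. GC content came from the longest coding transcript. Log2 ratios were of CPM after adding 0.5 counts. The GC curve was a polynomial of degree 3 fitted to autosomal genes of 50 or more counts in both libraries. The replicate test used genes with at least 10 counts in total, two-sided as the doubled smaller tail, and was run on simulated data. There, unchanged genes differed by sampling only, without the GC trend of these libraries, so the run was no check of the test on such data. It was computed in Python (scipy 1.17.1), with scaling from edgeR 4.0.16 and DESeq2 1.42.0 in R 4.3.3 and alignments from Biopython 1.88. With 1 group neither tool had a contrast to test.

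The members and lists were chosen with earlier results of these data known. The text names all members, always Phf1, Epop, Ezhip, Kdm6a and Kdm6b, the 6 highest of the further list, the 2 highest targets, and the 2 nearest genes of Ezh2, Eed and Suz12. A count of 0 allows up to 3 counts. The value of 1 neural precursor marker is not reported here.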

Additional observations from a re-analysis of the deposited data

How the results depend on the processing

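Of 108 alternatives that kept both replicates, 72 left a result the same. This was judged by the spread between replicates for a value, direction and threshold for a test, and a factor of 1.5 for a count. The 72 is no measure of stability, because some alternatives could not change a result. A changed count filter leaves each member's log2 ratio as it was. For Mtf2 and for Phf19 the union of exons is as long as the longest coding transcript. Member levels in CPM were also set against a spread in TPM, which is an unlike unit. With 2 replicates a value from either alone always lies within 1 SD of their mean, so leaving out a replicate is no check of stability and is given as a range. With the deposited span length the Ezh2 to Ezh1 ratio was 2.41, Rbbp4 to Rbbp7 0.282, Mtf2 to Phf19 165, Mtf2 and Phf19 to Jarid2 and Aebp2 9.51, the member median was 17.1 times that of all genes (21.3 with exons), and 2 members kept their place in the order. With CPM these were 4.41, 0.425, 354, 3.88, 29.7 and 3. With the longest coding transcript the Rbbp4 to Rbbp7 ratio was 0.217 and that of Mtf2 and Phf19 to Jarid2 and Aebp2 5.72. Across single replicates the Ezh2 to Ezh1 ratio ran from 6.27 to 12.9, Mtf2 to Phf19 from 168 to 486, and the median ratio from 19.5 to 24.5. The replicate log2 ratio reversed for Ezh2 (0.085 with TMM, 0.17 with DESeq2 size factors), Rbbp7 (0.020 and 0.11) and Rbbp4 (0.069 with DESeq2), a shift common to all genes. No paired analysis was possible because no second group shares the replicate numbers.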
